A study of Mus musculus with 2 samples.

Results

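The fibroblast growth factor (FGF) pathway was described in 1 RNA-seq library of mouse embryonic stem (ES) cells and 1 library of mouse E10.5 forebrain. The 35 genes were taken by symbol and comprised 18 secreted ligands, 4 intracellular FGFs, 5 receptors and 8 feedback and target genes. Of these, 34 were among the 29311 genes listed in both libraries, and *Fgf6*, which was not listed, was taken as 0 in both. The ES cells were wild-type cells of the E14 line, grown without feeders on gelatin in medium with fetal calf serum and LIF, the cytokine that keeps mouse ES cells undifferentiated. The E10.5 forebrain came from wild-type B6CBAF1/J embryos as dissected tissue of several cell types. The study's methods say that forebrain RNA was taken from single embryos, while the labels give a number of cells as its source, so that whether it came from 1 embryo or a pool is unclear. Strain, culture against embryo and the RNA reagent (Trizol for ES cells, Trizol LS for forebrain) all differ between the 2 libraries together with the cell type, and cannot be told apart from it. The study used these libraries to compare *Hox* gene transcription in ES cells with that in forebrain.

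Secreted FGFs bind receptor tyrosine kinases of the FGFR family together with heparan sulphate chains on the cell surface, and the hormone-like members need Klotho proteins in place of strong heparan binding. Activated receptors pass the signal through the adaptor FRS2 to RAS and the ERK MAP kinases. ERK activity switches on *Etv4*, *Etv5*, *Dusp6* and the *Sprouty* and *Spred* genes, several of which damp the same pathway, so their transcripts are widely used as readouts of FGF signalling. In mouse ES cells FGF4 is known to drive ERK signalling and exit from the naive state. In the early forebrain, FGF8 and its relatives FGF17 and FGF18 pattern the anterior midline and the cortex.

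RPKM values, reads per kilobase of exon scaled by the authors, are per length and were compared between genes and between libraries. Each gene's reads were inferred from the smallest step of these values, a total of 42783756 for the ES cell library and 59791108 for the forebrain library, and bracketed values are exact Poisson 95% intervals on them. With 1 library per group there is no replicate check and no test, and the intervals cover counting error only. Reads amplified by PCR are not independent molecules, which the intervals do not include. A gene was counted as higher in a library where log2(RPKM + 1) differed by at least 1, which is 2-fold for all but low genes. The median listed gene had an RPKM of 48.9 in ES cells and 62.4 in forebrain. Since both are bulk samples, fewer cells of a type and less RNA per cell cannot be told apart.

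The markers of both labels were present. All 8 ES cell markers were higher in ES cells, with *Zfp42* at an RPKM of 11505 against 58.9 and *Pou5f1* at 11244 against 42.9. All 8 forebrain markers were higher in E10.5 forebrain, with *Otx2* at 989 against 78.5 and *Lhx2* at 877 against 0. The forebrain library also held other cell types. Its 7 head mesenchyme markers summed to an RPKM of 6664 against 33.2 in ES cells (range 132 to 1796, led by *Pdgfra* and *Twist1*), and its 5 primitive erythroid markers to 675800 against 330 (range 817 to 367633, led by *Hbb-y* and *Hbb-bh1*). The 6 endothelial markers summed to 2135 against 604 (range 240 to 601), 5 of them higher in forebrain, with *Kdr* at 601 against 25.0 and *Pecam1* at 317 against 551. No marker of these 3 lists was at 0 in the forebrain library. How much of each FGF gene's forebrain level came from such cells was not tested.

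Of the 35 genes, 10 (28.6%) were higher in ES cells, where 23.3% of all listed genes were, and 12 (34.3%) were higher in forebrain, where 25.8% of all listed genes were. The remaining 13 passed in neither direction. At this 2-fold threshold both shares lay within 10 percentage points of the background, so that the number of differing genes did not set the pathway apart. At 4-fold, 9 of the 35 genes were higher in each library, beside 11.3% (ES cells) and 14.4% (forebrain) of all listed genes. At that threshold the share of the pathway was above the background in both directions, a difference that was not tested. The direction differed between roles. Receptors and intracellular FGFs were mostly higher in forebrain (4 of 5 and 3 of 4), the feedback and target genes were higher in ES cells in 4 of 8 cases and in forebrain in none, and the secreted ligands were evenly divided, 5 in each direction. The median log2 difference, forebrain minus ES cells, was 2.98 for the receptors, 3.42 for the intracellular FGFs, 0.34 for the listed ligands and −1.32 for the feedback and target genes, against 0.01 for all listed genes. Ligands were mostly scarce: only 3 of 18 in each library exceeded the median gene, whereas all 8 feedback and target genes did so in both libraries.

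**Figure D1:**
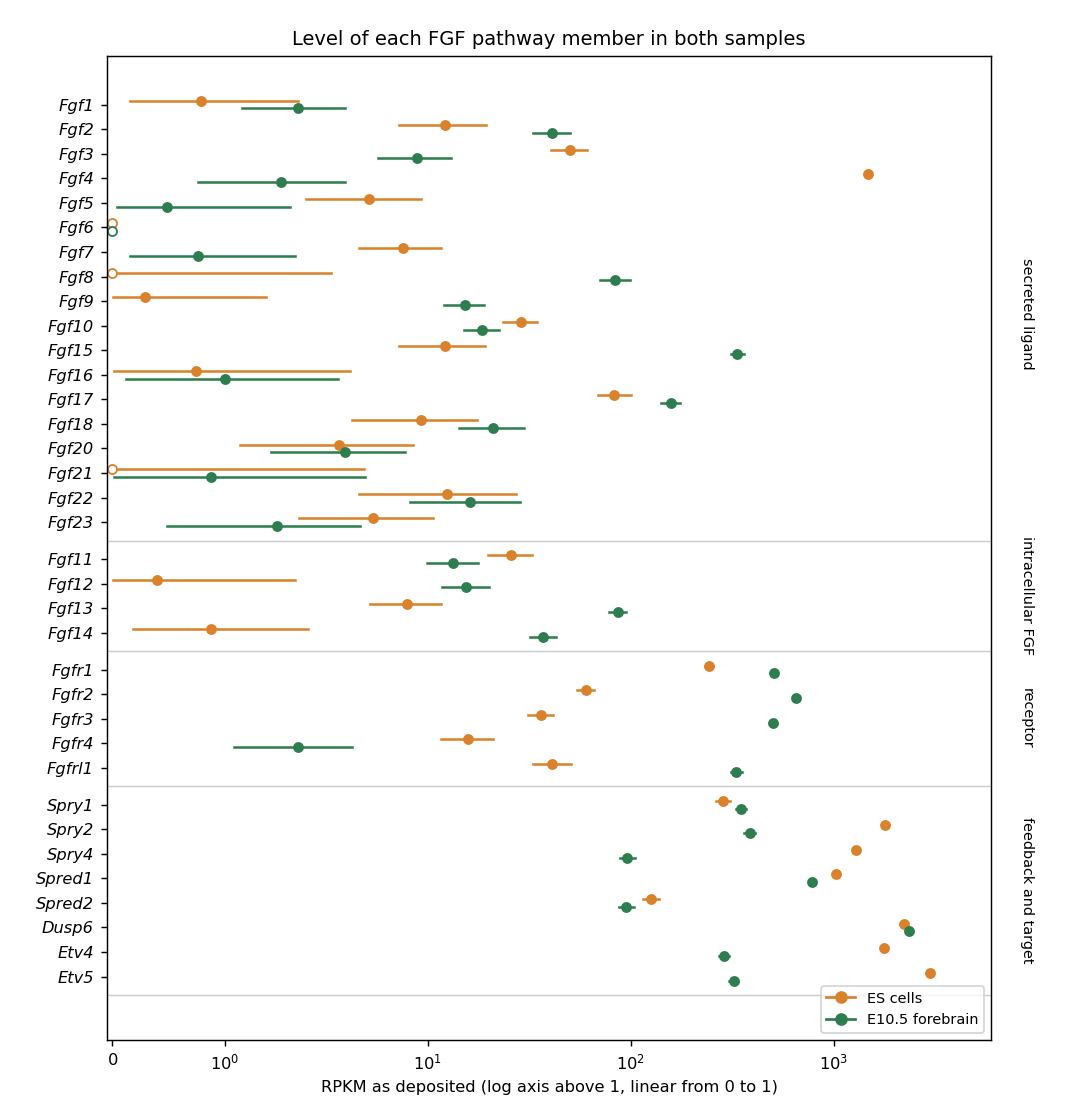
RPKM of each FGF pathway gene in ES cells and E10.5 forebrain, grouped by role, on an axis that is linear from 0 to 1 and logarithmic above, with exact Poisson 95% intervals as bars and open circles for values of 0. *Fgf4* lies at 1476 in ES cells and 1.89 in forebrain, the other ligands lie mostly below 100 in both, and the feedback and target genes lie between 95.1 and 2990 in both.

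**Figure D2:**
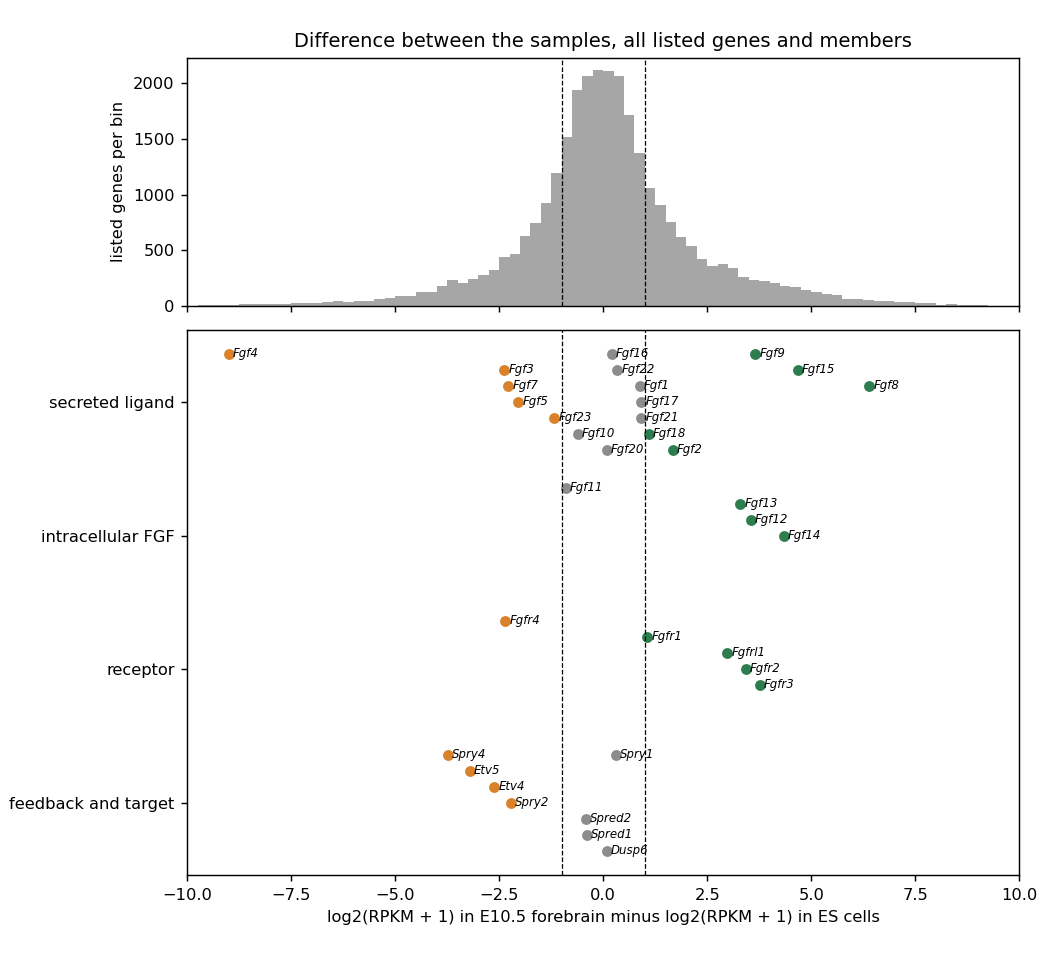
Difference in log2(RPKM + 1), E10.5 forebrain minus ES cells, for all 29311 listed genes (upper panel, number of genes per bin) and for the 34 listed FGF pathway genes by role (lower panel, 1 point per gene, dashed lines at the 2-fold threshold). The genes run from *Fgf4* at −9.00 to *Fgf8* at 6.40; 4 of the 5 receptors lie right of the threshold and no feedback or target gene does.

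*Fgf4* was the dominant ligand of ES cells. It encodes the FGF that ES cells secrete to activate ERK in one another. Its RPKM was 1476 [1429–1525] from 3664 reads in ES cells, at the 90.5th percentile of listed genes, and 1.89 [0.76–3.90] from 7 reads in forebrain. The level in ES cells was 781-fold higher (95% interval on reads 378 to 1942). *Fgf4* (ENSMUSG00000050917; NCBIM37 chr7:152047291-152051148, plus strand) is known for an enhancer in its last exon where SOX2 and OCT4, the product of *Pou5f1*, bind side by side. A SOX-type CTTTGT followed within 10 bases by the octamer ATGCTAAT was searched on both strands of the exons of all listed genes. It was found in 16 of 29311 genes (0.0546%), and *Fgf4* was the only one of the 35 FGF pathway genes to hold it. The letters were set with this enhancer known, and other forms of the 2 motifs were not searched. The match in *Fgf4* is therefore no test, and the counts give only how rare these exact letters are. The octamer alone was in the exons of 2100 genes (7.16%). The *Fgf4* match is shown because *Fgf4* had the largest difference in log2(RPKM + 1) of the pathway. With 0.1 added to RPKM in place of 1, *Fgf8* differed more (9.71 against −9.54). The match sits on the plus strand at NCBIM37 chr7:152050293-152050322, in exon 3 (152048670 to 152051148). It lies in the 3′ untranslated part, 1456 bases after the coding sequence ends, and capitals mark the 2 motifs, 4 bases apart:
*Fgf4* exon 3 motif pair: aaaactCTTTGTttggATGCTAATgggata

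The promoter windows of *Fgf4* and its neighbour *Fgf3* are shown because these genes stand 23.3 kb apart, start to start, and differed widely in level in ES cells. Each window is the 250 bases before the gene's start as RefSeq gives it on GRCm38.p6, on the plus strand. The windows are chr7:144861136-144861385 for *Fgf4* and chr7:144838362-144838611 for *Fgf3*. The 23.3 kb is measured on the NCBIM37 gene models used for RPKM, and the RefSeq starts are not the same distance apart. A window may therefore not lie directly before the gene as counted. Capitals mark TATATA as a TATA box, GGGCGG as a GC box, and the CCAAT box, each searched on both strands:
*Fgf4* promoter: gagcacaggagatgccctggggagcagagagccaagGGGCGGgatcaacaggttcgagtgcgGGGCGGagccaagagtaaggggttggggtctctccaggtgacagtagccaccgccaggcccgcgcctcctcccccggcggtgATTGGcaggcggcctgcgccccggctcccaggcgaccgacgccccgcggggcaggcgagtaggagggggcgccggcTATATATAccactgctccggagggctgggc
*Fgf3* promoter: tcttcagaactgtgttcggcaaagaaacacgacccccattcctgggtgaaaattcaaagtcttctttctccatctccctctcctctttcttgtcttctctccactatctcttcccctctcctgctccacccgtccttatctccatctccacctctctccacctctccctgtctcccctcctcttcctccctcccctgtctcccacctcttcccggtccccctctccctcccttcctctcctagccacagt

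The *Fgf4* window held 2 overlapping TATATA matches, 30 and 28 bases before the start, 2 GC boxes at 214 and 188 bases, and 1 CCAAT box on the minus strand at 106 bases. The *Fgf3* window held none of the 3 motifs, which says only that these letters are not in it. Its GC content was 55.2% against 71.2% for *Fgf4*. Over 32851 promoter windows of this length in the table, 5.25% held TATATA, 32.7% the GC box and 33.8% the CCAAT box.

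*Fgf3* and *Fgf15* flank *Fgf4* on chromosome 7, and the 3 ligand genes differed in opposite directions. *Fgf3*, a ligand of inner ear and tail development, had an RPKM of 50.1 [40.6–61.2] in ES cells and 8.80 [5.70–13.0] in forebrain, 5.70-fold higher in ES cells (3.64 to 9.23). *Fgf15*, whose product acts as a gut hormone on bile acid synthesis in adults and is made in the embryonic brain, had 12.2 [7.20–19.2] in ES cells and 336 [312–361] in forebrain, 27.7-fold higher in forebrain (17.4 to 46.9). *Fgf15* was thereby the highest secreted ligand of the forebrain library. In ES cells the RPKM of *Fgf4* was 29.5-fold that of *Fgf3*, whose end lies 17.0 kb before the *Fgf4* start, and 121.5-fold that of *Fgf15*, whose start lies 31.3 kb beyond the *Fgf4* end. In forebrain *Fgf15* exceeded *Fgf4* 177.8-fold. A noncoding gene, *Gm17685*, overlaps 26.4% of the *Fgf15* exons on the opposite strand and was at 5.81 in ES cells and 68.1 in forebrain. If those reads had been counted without strand, its density over the shared bases would add 18.0 to the forebrain RPKM of *Fgf15*; whether the counting used strand is not given in the sources used here. Of the flanking protein-coding genes, *Ano1* (17.4 and 303 in ES cells and forebrain) and *Oraov1* (399 and 1077) were higher in forebrain, while *Ccnd1*, the cyclin D1 gene, differed by 0.96 on the log2 scale (2290 and 4464).

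**Figure D3:**
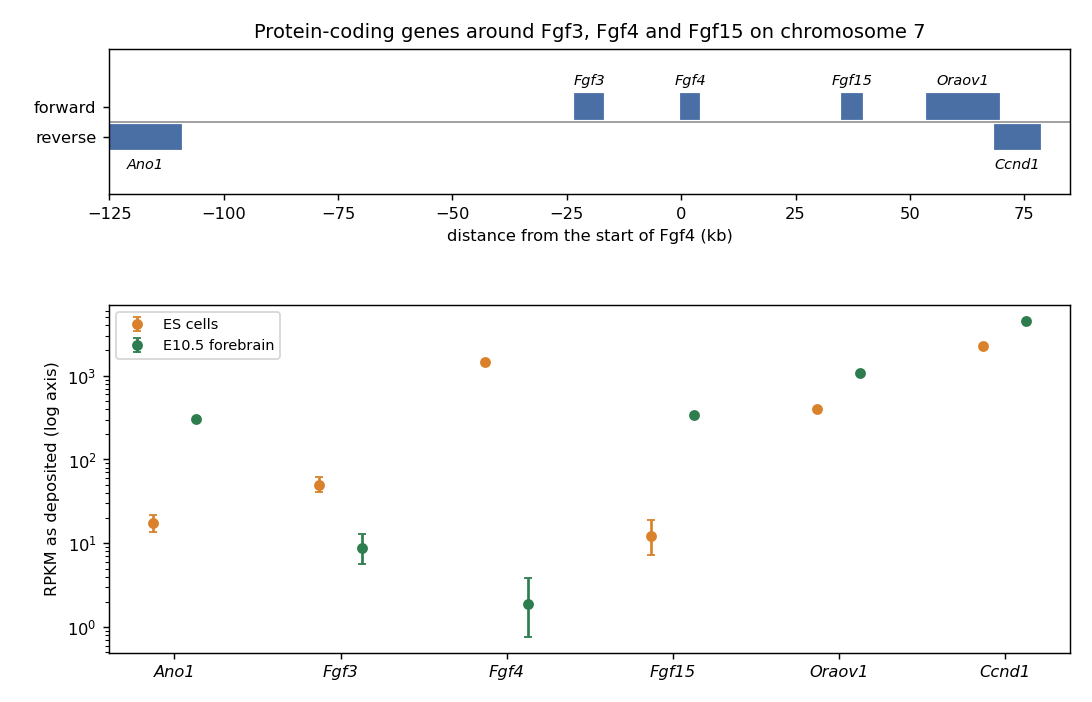
Map of the protein-coding genes around *Fgf4* on chromosome 7 by strand and distance from the *Fgf4* start in kb (upper panel), with the RPKM of each in ES cells and E10.5 forebrain on a log axis (lower panel, bars for exact Poisson 95% intervals). *Fgf3* and *Fgf4* are higher in ES cells and *Fgf15*, 35.1 kb from the *Fgf4* start, is higher in forebrain.

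The FGF8 subfamily, which carries the signals of embryonic brain organisers, had higher values in forebrain for each of its 3 members, *Fgf8* and *Fgf18* past the threshold. *Fgf8* (ENSMUSG00000025219; NCBIM37 chr19:45811288-45817405, minus strand) had no inferred read in ES cells, where 3 reads would give an RPKM of 2.71, and 83.7 [70.3–98.9] from 138 reads in forebrain. The forebrain value was 30.9-fold the RPKM of 3 reads in ES cells, a figure that leaves out the counting error of the forebrain value. *Fgf17* was the second ligand in both libraries, with 83.2 [68.7–99.9] in ES cells and 157 [141–175] in forebrain, a ratio of 1.89 (1.52 to 2.36) that stayed under the 2-fold threshold. *Fgf18*, which also acts in cartilage and bone growth, had 9.26 [4.23–17.6] and 21.1 [14.3–29.95], just past the threshold at a log2 difference of 1.10. Its ratio interval, 1.05 to 5.44, rests on 9 reads in ES cells. The boundary between midbrain and hindbrain is another source of *Fgf8* and *Fgf17* in the embryo. The 7 mid-hindbrain markers summed to 62.3 in the forebrain library, with a range of 1.01 to 24.7 and none at 0, and to 510 in ES cells, of which *Gbx2* made 460 and *En2* 44.4 (9.0 and 24.7 in forebrain). *Pax2* and *Wnt1* of that list were at 0 in ES cells and at 3.39 and 7.19 in forebrain. Of the 7 markers, 4 were higher in forebrain and 2 in ES cells, with a median log2 difference of 1.51. How much of the *Fgf8* and *Fgf17* level came from such cells was not tested.

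Among the other ligands, 2 were higher in forebrain. *Fgf2*, a broad mitogen of neural progenitors, had an RPKM of 12.2 [7.23–19.3] in ES cells and 40.9 [32.9–50.3] in forebrain, 3.35-fold higher (2.01 to 5.91). It shares 13.4% of its exonic length with *Nudt6* on the opposite strand (66.8 and 72.1); counted without strand, the density of *Nudt6* there would add 8.97 in ES cells and 9.69 in forebrain. *Fgf2* also shares 32 bases with *Bbs12* on the same strand (77.7 and 364.8). If reads over shared bases were counted for both genes, the density of *Bbs12* would add 1.38 and 6.48 whether or not strand was used. How such reads were assigned is not given in the sources used here. *Fgf9*, a ligand exchanged between epithelium and mesenchyme in many organs, had 0.29 [0.01–1.59] from 1 read in ES cells and 15.2 [12.01–18.9] from 79 reads in forebrain, a ratio of 52.3 with a wide interval (9.24 to 2119).

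The ligands higher in ES cells other than *Fgf4* and *Fgf3* were all low. *Fgf5*, the marker of the primed epiblast, had an RPKM of 5.13 [2.51–9.29] in ES cells and 0.49 [0.04–2.10] in forebrain, 10.47-fold higher in ES cells with an interval of 1.93 to 161.5. Of 6 other primed epiblast and streak genes, 3 were higher in each library, with a sum of 2811 in ES cells and 1524 in forebrain. In ES cells *Dnmt3b* had 1515 against 234 in forebrain and *T* 1112 against 2.66, far above *Fgf5*. *Eomes* had 90.1 against 234 and *Otx2* 78.5 against 989. *Mixl1*, with 9.05 against 1.07, and *Pou3f1*, with 6.08 against 63.5, were nearer the *Fgf5* level in ES cells. *Fgf7*, a mesenchymal growth factor for epithelia, had 7.52 [4.59–11.6] and 0.76 [0.16–2.21], 9.90-fold higher in ES cells (2.95 to 52.2). *Fgf23*, the bone hormone of phosphate balance, had 5.38 [2.32–10.6] from 8 reads and 1.81 [0.49–4.62] from 4 reads. Although its log2 difference was −1.18, the interval of its ratio, 0.799 to 13.5, included equal levels.

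The remaining ligands stayed under the threshold. *Fgf10*, the ligand of limb and lung budding, was the best covered of them, with 28.7 [23.5–34.6] in ES cells and 18.4 [15.1–22.3] in forebrain, 1.56-fold higher in ES cells (1.18 to 2.06). *Fgf22*, a ligand of synapse formation, had 12.5 [4.59–27.2] and 16.1 [8.17–28.4], with overlapping intervals. *Fgf1*, the acidic FGF that binds all receptors, had 0.79 from 3 reads and 2.29 from 13 reads. *Fgf20*, a ligand of dopamine neurons and kidney, had 3.64 from 5 reads and 3.91 from 8 reads, and shares 202 exonic bases with *Efha2* on the opposite strand (54.6 and 84.7). Counted without strand, the density of *Efha2* there would give 6.57 in ES cells and 10.2 in forebrain, above the whole *Fgf20* value in both. *Fgf6*, *Fgf16* and *Fgf21* had 0 to 2 reads in each library, so that no difference was detectable at this depth.

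Summed over the 18 secreted ligands, RPKM came to 1708 in ES cells and 710 in forebrain, a ratio of 0.416, and *Fgf4* decided its direction: without it the sum was 3.06-fold higher in forebrain. The libraries also differed in how the sum was divided. In ES cells *Fgf4* made 86.4% of it, *Fgf17* 4.87% and *Fgf3* 2.94%, together 94.2%. In forebrain *Fgf15* made 47.3%, *Fgf17* 22.1% and *Fgf8* 11.8%, together 81.2%, followed by *Fgf2* with 5.76%. From *Fgf18* (2.96%) down to *Fgf20*, the intervals of ligands next to each other in the forebrain order overlapped, although those of ligands farther apart, such as *Fgf18* and *Fgf20*, did not. Among the receptor genes *Fgfr1* to *Fgfr4*, the ES cell sum was led by *Fgfr1* with 68.5%, then *Fgfr2* with 16.9%, *Fgfr3* with 10.2% and *Fgfr4* with 4.44%, while in forebrain *Fgfr2* (39.3%), *Fgfr1* (30.5%) and *Fgfr3* (30.1%) made 99.9%. The intervals of *Fgfr1* and *Fgfr3* overlapped in forebrain.

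**Figure D4:**
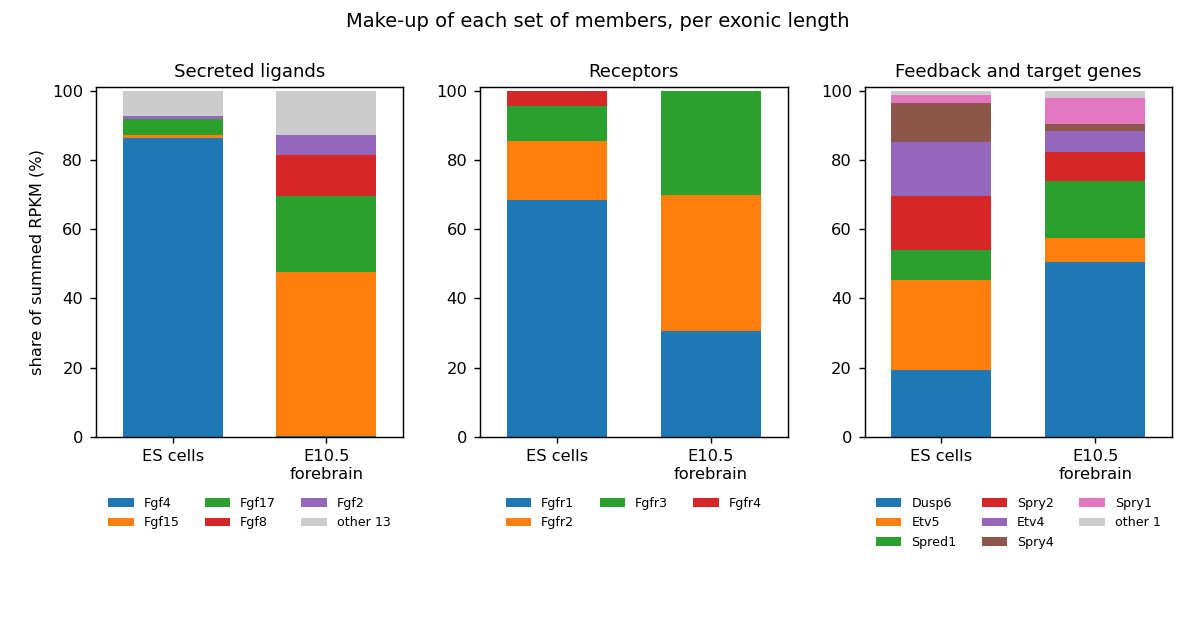
Shares of the summed RPKM, in percent, of the secreted ligands, of *Fgfr1* to *Fgfr4* and of the feedback and target genes in each library. *Fgf4* makes 86.4% of the ES cell ligands and *Fgf15* 47.3% of the forebrain ligands; *Fgfr1* makes 68.5% of the receptors in ES cells, whereas forebrain has 3 receptors of 30.1% to 39.3%.

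The 3 principal receptors of the nervous system were higher in E10.5 forebrain, although *Fgfr1* fell under the threshold, at a log2 difference of 0.97, when the libraries were scaled by upper quartile. *Fgfr1* (ENSMUSG00000031565; NCBIM37 chr8:26624126-26686186, plus strand), which is needed for neural and mesoderm development, had an RPKM of 244 [232–256] in ES cells and 509 [495–523] in forebrain, 2.09-fold higher (1.97 to 2.21). A further identifier named *Fgfr1* at the same place, which covers 761 bases of these exons, gave 207 and 463, a log2 difference of 1.16. *Fgfr3* (ENSMUSG00000054252; chr5:34064373-34079716, plus strand), which restrains bone growth and is graded across the early cortex, had 36.1 [31.3–41.4] in ES cells and 502 [487–518] in forebrain, 13.9-fold higher (12.1 to 16.1). It shares 91.0% identity over 324 bases with a transcript of *Nvl*, so that some reads could belong to either.

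*Fgfr2* (ENSMUSG00000030849; chr7:137305965-140315033, minus strand), the receptor of epithelial and neuroepithelial FGFs, had 60.0 [54.1–66.3] in ES cells and 656 [640–672] in forebrain, 10.9-fold higher (9.86 to 12.1). Its annotated exons include 314 bases of *Ctbp2* on the same strand, a gene at 3061 in ES cells and 1136 in forebrain. The density of *Ctbp2* over those bases would alone give 123 in ES cells, above the whole *Fgfr2* value there, and 45.7 in forebrain. The ES cell level of *Fgfr2* is therefore uncertain, and how the shared reads were assigned is not given in the sources used here.

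The other receptors went opposite ways. *Fgfr4*, the liver and muscle receptor of the hormone-like FGFs, had 15.8 [11.6–21.1] in ES cells and 2.30 [1.11–4.24] in forebrain, 6.87-fold higher in ES cells (3.41 to 15.2). *Fgfrl1*, a receptor without a kinase domain, had 41.1 [33.1–50.6] and 332 [312–352], 8.07-fold higher in forebrain (6.496 to 10.1). The sum of *Fgfr1* to *Fgfr4* was 356 in ES cells and 1669 in forebrain, a ratio of 4.69, and 3.43 without *Fgfr2*. Head mesenchyme, whose 7 markers were all higher in the forebrain library, is also known to express FGF receptors; its part in these levels was not tested.

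The intracellular FGFs are not secreted, do not activate FGF receptors and bind voltage-gated sodium channels in neurons. *Fgf13* had an RPKM of 7.90 [5.16–11.6] in ES cells and 86.4 [78.4–95.03] in forebrain, 10.9-fold higher in forebrain (7.36 to 16.9). *Fgf14* had 0.88 [0.18–2.56] from 3 reads and 37.0 [31.9–42.7] from 189 reads, and *Fgf12* had 0.40 [0.01–2.21] from 1 read and 15.4 [11.7–19.9] from 58 reads. All 3 were thus low in ES cells and clearly counted in forebrain. *Fgf11* differed from them, with 25.7 [19.8–32.8] in ES cells and 13.3 [9.87–17.6] in forebrain, 1.93-fold higher in ES cells (1.31 to 2.85) and under the threshold. The subfamily sum was 34.9 and 152, led by *Fgf11* with 73.7% in ES cells and by *Fgf13* with 56.8% in forebrain. Of the 5 neuronal markers, 4 were higher in forebrain, among them *Tubb3* (795 and 3318), while *Stmn2* was higher in ES cells (6910 and 1056), and the list summed to 7725 in ES cells and 4972 in forebrain.

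The ETS factors and *Spry2* and *Spry4* were higher in ES cells. *Etv5* (ENSMUSG00000013089), a transcription factor induced by ERK, was the highest feedback or target gene there, with an RPKM of 2990 [2931–3049] against 322 [307–338] in E10.5 forebrain, 9.28-fold higher (8.80 to 9.79). *Etv4*, its close relative, had 1782 [1730–1835] and 289 [272–307], 6.17-fold higher (5.77 to 6.59). *Spry4* (ENSMUSG00000024427), an inhibitor upstream of ERK, had 1294 [1258–1331] and 96.3 [88.4–105], 13.4-fold higher (12.3 to 14.7), and showed the largest difference of the 8 genes. *Spry2*, an inhibitor of the same family, had 1798 [1735–1863] and 386 [363–411], 4.65-fold higher (4.33 to 5.01).

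The other 4 feedback genes stayed under 2-fold. *Dusp6*, the phosphatase that inactivates ERK, was at nearly the same high level in both libraries, 2225 [2164–2287] in ES cells and 2366 [2314–2418] in forebrain, a ratio of 1.06 (1.027 to 1.102). *Spry1* had 285 [264–307] and 351 [331–371], 1.23-fold higher in forebrain (1.12 to 1.35). *Spred1*, a membrane inhibitor of RAS to RAF signalling, had 1025 [999–1052] and 783 [764–802], 1.31-fold higher in ES cells (1.26 to 1.36), and *Spred2*, its relative, had 126 [115–138] and 95.1 [87.3–104], with a ratio of 1.33 (1.17 to 1.51). The differences of *Spry1*, *Spred1*, *Spred2* and *Dusp6* exceeded counting error but had no replicate spread to be set against. They also moved with the scaling of the libraries. The log2 difference of *Dusp6*, 0.09, became 0.0 by upper quartile and 0.36 with both libraries scaled to the same RPKM sum. That last scaling took *Spred1* from −0.39 to −0.12, *Spred2* from −0.41 to −0.14 and *Spry1* from 0.30 to 0.57.

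The *Sprouty* genes therefore did not share 1 pattern, since *Spry2* and *Spry4* were higher in ES cells and *Spry1* was not, and neither did the ERK-induced genes, since *Etv4* and *Etv5* differed and *Dusp6* did not pass the threshold. The sum of the 8 genes was 11525 in ES cells and 4688 in forebrain, a ratio of 0.407, and 0.512 without *Etv5*. In ES cells *Etv5* made 25.9% of it, *Dusp6* 19.3%, *Spry2* 15.6%, *Etv4* 15.5%, *Spry4* 11.2% and *Spred1* 8.89%, with *Spry2* and *Etv4* not ordered beyond their intervals. In forebrain *Dusp6* alone made 50.5% and *Spred1* 16.7%. There *Spry2* (8.24%) and *Spry1* (7.48%), *Spry1* and *Etv5* (6.87%), and *Spry4* (2.06%) and *Spred2* (2.03%) overlapped in their intervals, with *Etv4* at 6.16%.

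Around these 35 genes, 4 lists of further pathway components held 57 genes, of which 56 were listed and *Spry3* was not. Together 6 (10.7%) were higher in ES cells and 19 (33.9%) in forebrain, beside 23.3% and 25.8% of all listed genes, and the median log2 difference was 0.68. Co-receptors and heparan sulphate proteins differed most often: 11 of 14 were higher in forebrain and 2 in ES cells, with a median log2 difference of 3.23. *Gpc6*, a glypican, had 5.18 in ES cells and 251 in forebrain, *Flrt2*, a membrane protein of the FLRT family, 29.0 and 969, and *Sdc3*, the neural syndecan, 8.66 and 201. *Gpc3*, a glypican of embryonic tissue growth, was the highest of the list in forebrain, with 494 and 3524. The exceptions were *Sdc4*, a widely expressed syndecan, with 4881 in ES cells and 330 in forebrain, and *Klb*, the Klotho co-receptor of FGF15 and FGF21, with 9.87 and 2.13. *Kl* was at 0.65 and 1.68 and passed in neither direction.

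The counts of the further lists stand beside 23.3% of all listed genes higher in ES cells and 25.8% higher in forebrain. Of 11 heparan sulphate enzymes, 5 were higher in E10.5 forebrain and none in ES cells (median 0.93). The largest differences were those of sulphotransferase genes, although other sulphotransferases of the list passed in neither direction. *Ndst1* had an RPKM of 153 in ES cells and 800 in forebrain, *Ndst2* 44.6 and 205, and *Hs6st2* 43.6 and 172. *Sulf2*, which removes sulphate groups outside the cell, was the highest of the list in both libraries, with 1184 and 1320. Of the 19 relay genes from receptor to ERK, 16 passed in neither direction (median 0.50). *Nras*, a RAS family GTPase, was the highest of the list in forebrain, with 2017 and 3049. *Gab1*, a docking protein downstream of receptors, was higher in ES cells (1331 and 241), as was *Frs3* at −1.02 (120 and 58.6), and *Sos2*, a RAS exchange factor, was higher in forebrain (27.3 and 229). Of the 12 listed further inhibitors and targets, *Egr1* (79.4 and 25.6) and *Dusp1* (404 and 162) were higher in ES cells, *Dusp7* (72.9 and 427) and *Spred3* (25.2 and 56.8) were higher in forebrain, and 8 passed in neither direction (median −0.06). *Ier2*, an immediate early gene, was the highest of them, with 1109 and 834.

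**Figure D5:**
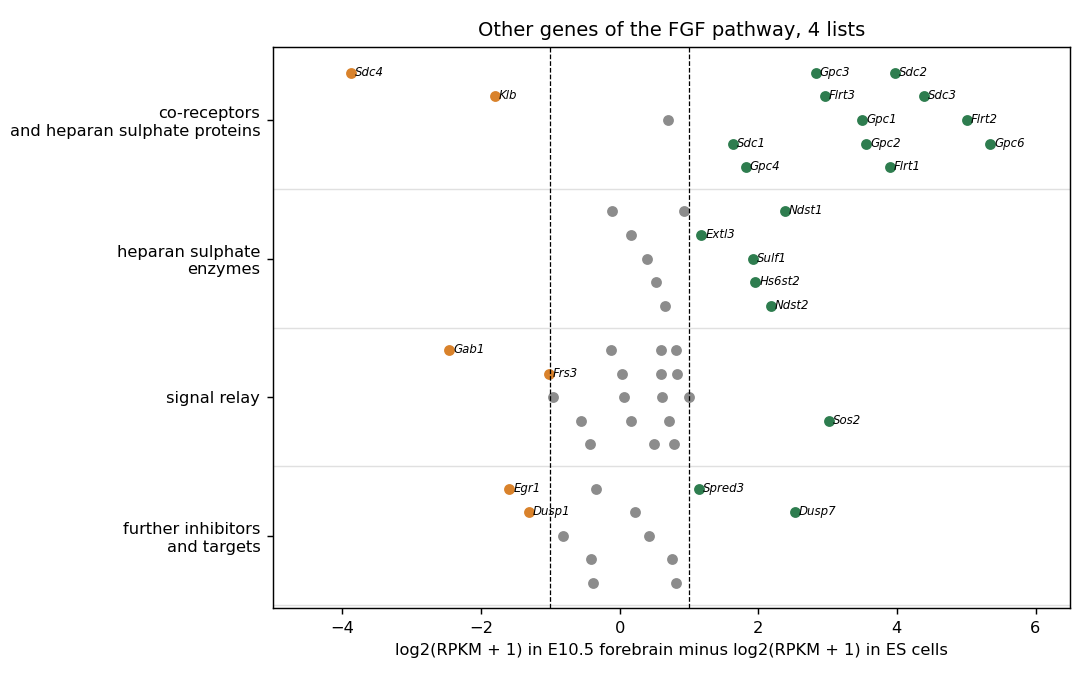
Difference in log2(RPKM + 1), E10.5 forebrain minus ES cells, of the 56 listed genes in 4 lists of other FGF pathway genes, 1 point per gene, with dashed lines at the 2-fold threshold and names for genes past it. The co-receptors and heparan sulphate proteins lie mostly to the right, with *Sdc4* at −3.88 and *Klb* at −1.80 as exceptions, and 16 of 19 relay genes lie between the lines.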

How the data were processed

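RNA-seq of 2 libraries was used, 1 of ES cells and 1 of E10.5 forebrain. According to the labels and the study's methods, ribosomal RNA was depleted, stranded total RNA libraries were made, and single-end reads (100 bp in the labels, another length in the methods) were mapped to NCBIM37 (mm9) with the HTSstation pipeline; the submitters' processing notes name Bowtie 0.12.7. For each gene the authors deposited an RPKM value, used here without further normalization. The values were whole multiples of 1.221 (ES cells) and 0.819 (forebrain) per kb of exon in 58.9% of 5704 and 61.0% of 6190 low genes with up to 2500 bp of exon (within 0.05 of a whole number; 10% by chance), so they are reads per kb divided by 1 factor per sample and not by its total of reads. The spacing found was doubled for as long as most of these values stayed near whole multiples, since reads split between places leave fractions. Reads were inferred from these steps to the nearest 0.5, and the intervals depend on this choice of step.

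Symbols were matched through the GENCODE annotation of the same build, the identifier with the longest exons being taken where 2 shared a symbol. Differences were taken on log2(RPKM + 1), which understates low genes. Intervals of values are exact Poisson, those of ratios exact Clopper-Pearson, both at 95%. Promoters are from a RefSeq table, which held 26 of the 35 genes. Similar transcripts (at least 90% identity over 100 bp) were found with blastn 2.17.0. Scripts were tested on simulated data (Python 3.11.15, SciPy 1.17.1). The genes and lists were chosen with earlier results of these data known. Every one of the 35 genes was named; of each pathway list, the 3 largest differences past 2-fold in each direction and the gene with the highest value in either library; of each of the 10 marker lists, the 2 genes with the highest value. *Ano1*, *Oraov1* and *Ccnd1* were named as neighbours of *Fgf4*. *Kl*, *Pax2*, *Wnt1*, *Eomes*, *Mixl1*, *Pou3f1* and overlapping or similar genes were named after their values were seen. The values of 1 pathway gene are not reported here.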

Additional observations from a re-analysis of the deposited data

How the results depend on the processing

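The counts over all 35 genes and over the pathway genes together, the sums of ligands, receptors and feedback genes, the leading shares and the differences of 32 genes were recomputed with those of another pseudocount, fold, filter on reads or scaling that apply to them, and *Fgfr1* also with its other identifier; counts by role or list, the intracellular sum and the marker sums were not. The ratio of summed ligands (0.416, forebrain over ES cells) was reversed without *Fgf4*, at 3.06; it was 0.503 with both libraries scaled to the same RPKM sum, 0.391 by upper quartile and 0.444 per inferred read. The same 3 scalings gave 5.67, 4.41 and 5.01 for the receptors (4.69; 3.43 without *Fgfr2*) and 0.491, 0.383 and 0.434 for the feedback and target genes (0.407; 0.512 without *Etv5*). They moved the median of all genes by 0.25, −0.08 and 0.09 on the log2 scale. At a 4-fold threshold, 9 of the 35 genes were higher in each library (11.3% and 14.4% of all genes) and 2 pathway genes, in place of 6, were higher in ES cells. Over all alternatives 8 to 10 genes were higher in ES cells and 9 to 14 in forebrain, and 13 to 26 pathway genes were higher in forebrain. Requiring 10 reads in place of 3 left 23 of 29 detected genes in ES cells and 27 of 31 in forebrain, and any read gave 32 and 34. On reads in place of RPKM, the leading share was 89.8% for *Fgf4*, 71.8% for *Fgfr1* in ES cells and 40.3% for *Fgfr2* in forebrain. Among 160 alternatives for single genes, none changed sign and 9 crossed the threshold, at *Fgf1*, *Fgf5*, *Fgf17*, *Fgf18*, *Fgf23* and *Fgfr1* (0.97 by upper quartile). With protein-coding genes as background, 18.9% were higher in ES cells and 27.9% in forebrain. No paired analysis was possible because each group holds 1 sample, and for the same reason leaving out a replicate was not run. Depth limits the genes with under 10 reads, *Fgf1*, *Fgf5*, *Fgf9*, *Fgf12*, *Fgf14* and *Fgf23* among them, whose ratios are bounded only loosely.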

Other observations

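Marker lists of other cell types not described above gave these summed RPKM values. The 5 surface ectoderm and placode markers summed to 1686 in ES cells, of which *Epcam* made 1685, and to 281 in E10.5 forebrain, where *Epcam* had 206 and *Dlx5* 36.3. *Dlx5* was at 0 in ES cells. Only *Epcam* was higher in ES cells, while the other 4 were higher in forebrain, with a median log2 difference of 3.79 for the list. The 6 primitive endoderm markers summed to 10.8 in ES cells, with *Sox17* at 3.10 and *Foxa2* at 1.55, and to 112.5 in forebrain, with *Sox17* at 41.3 and *Foxa2* at 30.1. Of the 6, 5 were higher in forebrain and 1 in ES cells. Which cells of the forebrain library these transcripts came from was not tested.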
